A study of Mus musculus with 21 samples.

Results

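The change of the valproic acid (VPA) effect from embryonic day 15 (E15) to 12 weeks of age was examined in 12 of the 21 RNA-seq libraries of the series. They were chosen by group: control and VPA at E15, and control and VPA at 12 weeks, with 3 libraries in each of the 4 groups. All mice were C57BL/6 carrying Nestin-EGFP, a reporter in which Nestin regulatory sequence drives a green fluorescent protein. Their pregnant dams received VPA by mouth at 300 mg/kg/day, or methylcellulose as the vehicle, on embryonic days 12, 13 and 14. EGFP-positive cells were sorted from the forebrain at E15 and from the dentate gyrus at 12 weeks, and polyadenylated RNA was sequenced. Age and brain region changed together in this design, so they cannot be told apart. The labels do not say which libraries came from separate animals or litters, so p-values measure only the spread between these libraries. In sorted bulk samples, fewer cells of a type and less RNA per cell cannot be told apart.

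VPA is an antiepileptic drug that also inhibits histone deacetylases, and exposure in the womb is a known risk for later neurodevelopmental disorders. At E15 the forebrain progenitors divide to make cortical and subcortical neurons. In the adult dentate gyrus, Nestin-expressing stem cells are mostly quiescent and give rise to new granule neurons. The E15 comparison therefore reads the response about a day after the last dose, while the 12-week comparison reads what differs long after exposure. The interaction asks whether both differences are equal: it is the VPA-minus-control difference at 12 weeks minus that at E15, on the log2(FPKM + 1) scale. FPKM is fragments per kilobase of transcript, scaled to the mapped fragments of a library, and all log2 differences below are on that scale, which understates changes of genes near 0.

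The files list 24322 gene symbols, of which 14082 reached 1 FPKM in at least 3 of the 12 libraries and were tested. The files give no read counts, and their FPKM columns summed to 465610 to 506183 at E15 and to 493082 to 537200 at 12 weeks. Between 16116 and 16734 genes were above 0 in an E15 library and between 13502 and 15210 in a 12-week library. The median standard deviation (SD) between replicates was 0.11 log2 units in E15 controls and 0.113 in the E15 VPA group, against 0.334 and 0.351 at 12 weeks. At E15, 1 library stood apart. VPA E15 replicate 3 held transcripts of choroid plexus, the epithelium that secretes cerebrospinal fluid: its 10 choroid plexus markers summed to 11280 FPKM, against 14.1 to 158 in the E15 controls. Transthyretin, Ttr, was at 9662 FPKM there and at 29.7 and 56.1 in the other 2 VPA libraries. Several results that rest on this library are given with and without it. Xist was at 103 and 163 FPKM in replicate 2 of both E15 groups and under 1 FPKM in the other 4 E15 libraries, so this split was balanced between treatments. Every 12-week library held both Xist (52.9 to 175 FPKM) and the Y-linked Ddx3y (6.42 to 22.7 FPKM). Control 12w replicate 1 held the most microglia and erythroid transcripts of the adult libraries, with summed markers of 484 and 824 FPKM. The other adult libraries summed to 62.2 to 133 FPKM and to 0 to 162 FPKM. The part of these transcripts in the adult results was not tested. The stem cell markers were present at both ages: the 16 neural stem and radial glia markers summed to 615 to 784 FPKM at E15 and to 1016 to 1894 at 12 weeks. The 20 newborn neuron markers summed to more, 5832 to 7217 FPKM at E15 and 2225 to 3760 at 12 weeks. At 12 weeks the sorted cells also held summed pericyte markers of 842 to 2453 FPKM and endothelial markers of 94.3 to 509 FPKM.

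The VPA effect changed between the ages for 12 genes (0.0852%), 9 of them upward (0.0639% of tested genes) and 3 downward (0.0213%), by limma with Benjamini-Hochberg adjustment over all tested genes. At an unadjusted p under 0.05 the interaction passed for 1350 genes, 9.59% of those tested. The called genes were the protein-coding Cntnap2, Opcml and Sap25, 4 noncoding transcripts and 5 small RNA genes. Only 4 of the 12 (Cntnap2, Mir3057, Mir7078 and Snord65) were called when the libraries were weighted by the spread of their age. Without any 1 of the 3 E15 control libraries, the 5 small RNA genes no longer passed the filter and none of the 7 genes still tested was called, with a limma adjusted p of 0.0514 to 0.0847 for Cntnap2. Same-numbered libraries deviated together at E15, and with replicate number as a block within each age only Mir3057, Mir7078, Snord57 and Snord65 were called, for the interaction and for the mean effect alike.

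Cntnap2 encodes a neurexin-family adhesion protein that organises potassium channels along axons, and its VPA difference changed sign between the ages. The gene lies at chr6:45059357-47304213 on the plus strand (ENSMUSG00000039419, mm10). Its FPKM was 14.2, 15 and 12.5 in the E15 controls and 18.0, 19.1 and 19.9 in the E15 VPA libraries. At 12 weeks it was 22.3, 29.6 and 22.3 in controls and 9.42, 8.88 and 7.74 after VPA. All 3 VPA libraries were above the controls at E15, with 1.37 times their mean, and all 3 were below them at 12 weeks, with 0.351 times their mean. The log2 difference was 0.43 at E15 and -1.40 at 12 weeks, and the interaction was -1.83 ± 0.21 (SE, limma adjusted p = 0.0063). The E15 difference alone was not called. The interaction therefore shows that the differences at both ages were unequal, and a reversal was not itself tested. Across 13 other settings Cntnap2 was called in 12, with adjusted p from 0.00448 to 0.165. It was missed where replicate number was a block within each age.

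Opcml encodes an IgLON cell adhesion molecule anchored to the neuronal membrane by a lipid, and its difference changed sign the other way. It lies at chr9:27790775-28925410 on the plus strand. At E15 it was 11, 10.6 and 12.7 FPKM in controls and 9.26, 7.75 and 7.78 after VPA. At 12 weeks it was 9.17, 7.80 and 8.04 FPKM in controls and 21.3, 18.2 and 26.7 after VPA. VPA libraries were all below the E15 controls and all above the adult controls, at 2.65 times their mean. The interaction was 1.72 ± 0.24 (SE, limma adjusted p = 0.0277). As for Cntnap2, the E15 difference alone was not called, so a reversal was not itself tested. Opcml was called in 7 of the 13 other settings and in 6 of the 12 fits that left out 1 library, with adjusted p up to 0.262 among the settings. Oligodendrocyte precursor markers were also higher in the adult VPA libraries, at a summed 2371 to 3630 FPKM against 1331 to 2085, and their part in the Opcml result was not tested.

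Sap25 encodes a subunit of the Sin3 corepressor complex, which carries histone deacetylases. It is a 1569-base gene at chr5:137641334-137642902 on the plus strand. It was 10.2, 6.61 and 6.10 FPKM in E15 controls and 11.6, 11.5 and 10.4 in E15 VPA libraries. At 12 weeks all 3 controls were listed at 0 and the VPA libraries were at 12.6, 11.7 and 5.35 FPKM. VPA was therefore the higher group at both ages, and the interaction of 2.84 ± 0.41 (SE, limma adjusted p = 0.0352) came from the larger adult difference. An annotated readthrough transcript, Gm20605, runs from the neighbouring gene Lrch4 through Sap25 exons on the same strand. Lrch4 was 3.08, 5.90 and 0 FPKM in adult controls and 11.1, 20.2 and 13.1 after VPA, while Gm20605 was 20.2, 6.83 and 12.4 in controls and 11, 3.58 and 0.374 after VPA. The FPKM values of the 3 genes share exonic sequence, so the Sap25 zeros are uncertain. Sap25 was called in 6 of 13 other settings and in 3 of 12 fits without 1 library.

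**Figure D1:**
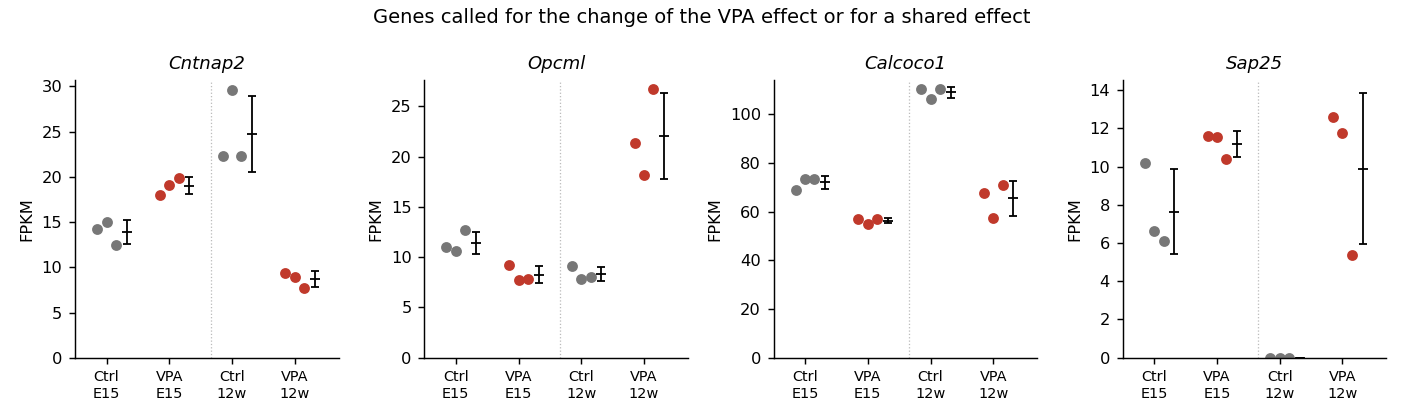
FPKM of Cntnap2, Opcml, Calcoco1 and Sap25 in each of the 12 libraries (grey, control; red, VPA; black, mean ± SD, n = 3), with a separate y axis per gene. Cntnap2 and Opcml change places between the ages, Calcoco1 is lower after VPA at both, and Sap25 is listed at 0 in the 3 adult controls.

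Among noncoding genes, 0610040B10Rik, antisense to Zdhhc4 with which it shares only the edge of an exon, was 2.35 to 4.71 FPKM in E15 controls and 0.865 to 4.71 in E15 VPA libraries. At 12 weeks it was listed at 0 in the 3 controls and was 23.9, 17.8 and 23.3 FPKM after VPA. Its interaction was 4.81 ± 0.52 (SE, limma adjusted p = 0.00395). It was also the single gene called for VPA at 12 weeks when the 6 adult libraries were fitted alone (0.0071% of tested genes, limma adjusted p = 0.0345). The fit of all 12 libraries called 432 at 12 weeks (3.07%), but its shared spread is smaller than that of the adult libraries, so these calls are not used. A330048O09Rik, a long intergenic RNA at chr13:48272413-48273884, showed the reverse pattern: 7.75, 11.3 and 17 FPKM in adult controls and 0 in the 3 adult VPA libraries. At E15 it was at or below 0.429 FPKM in controls and at 0.885, 0.454 and 2.77 after VPA. Its interaction was -4.54 ± 0.53 (SE, limma adjusted p = 0.0063). Eldr and Gm15545 were the other called transcripts, with interactions of 2.73 and -2.74. Eldr was called in 4 of 11 other settings and in 5 of 12 fits without 1 library. Gm15545 was called in 3 of 12 other settings and in 2 of 12 such fits. Gm15545 lies antisense to Bcl2l12 exons, and no source used here states strand-aware counting, so reads of the pair cannot be told apart. Bcl2l12 itself was also lower in adult VPA libraries, at 1.38, 4.32 and 3 FPKM against 11.6, 10.3 and 7.41.

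The 5 small RNA genes changed in a single way: each was detected in the 3 E15 controls and listed at 0 in the 3 E15 VPA libraries and in all 6 adult libraries. Mir7078 was at 207, 325 and 368 FPKM in the E15 controls, Snord65 at 167, 393 and 119, Snord57 at 442, 86.6 and 235, Mir3057 at 27.5, 21.5 and 38.9, and Scarna6 at 6.01, 6.73 and 3.05. The interaction of these genes is thus the E15 difference with its sign turned, since no adult value was above 0. These were also the genes called at E15 alone, 5 in the fit of 12 libraries (0.0355%) and 4 in the fit of the 6 E15 libraries (0.0284%). They passed the filter only through the 3 E15 controls in which they were high, so these calls rest on that selection, and no other gene was called at E15. The files hold no counts, so an exact 0 can be a failed estimate and does not show that the RNA was absent. All 5 lie inside host genes, as the GENCODE annotation gives them. Mir7078 is 64 bases at chr8:117459265-117459328, in an intron of Cmip. Mir3057 is 91 bases at chr10:81271597-81271687, overlapping exonic sequence of Apba3. Snord57 overlaps exonic sequence of Nop56, a protein of the snoRNA particles themselves, and Snord65 and Scarna6 lie in introns of 2410006H16Rik and Atg16l1. The host genes did not share the pattern. Nop56 was 74.7, 70.2 and 80.6 FPKM in E15 controls and 74.0, 77.1 and 72.8 after VPA, and Cmip was 73.7 to 85.4 FPKM in controls and 76.9 to 86.3 after VPA. Apba3, 2410006H16Rik and Atg16l1 also overlapped between the E15 groups. FPKM divides by a length that is very short for these genes, so few fragments give large values. The annotated mature microRNAs of the 2 called microRNA genes are shown for reference and were not themselves measured. Capitals mark the seed, bases 2 to 8 (RefSeq, GRCm38.p6).
mmu-miR-7078-5p: uGUGGGUGguaggagacgcu
mmu-miR-7078-3p: uACUUUUUuuaucauccacag
mmu-miR-3057-5p: aUUGGAGCugagauucugcgggau
mmu-miR-3057-3p: uCCCACAGgcccagcucauagc
The 4 mature arms carry 4 different seeds. A polyadenylated library does not measure mature microRNAs, so the values above belong to the genes' hairpin regions and not to these products.

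Below the threshold, the genes with the next smallest interaction p-values kept groups that did not overlap at 12 weeks. Slc1a1, a neuronal glutamate transporter, was 15.9, 16.8 and 19.1 FPKM in E15 controls and 14.1, 13.6 and 12.6 after VPA. Adult values were 30.9, 23.8 and 21.4 FPKM in controls and 45.7, 51.3 and 62.0 after VPA, with an interaction of 1.38 ± 0.22 (SE, limma adjusted p = 0.058). Rnd2, which acts in migrating cortical neurons, was 179 to 209 FPKM in E15 controls and 194 to 298 after VPA. At 12 weeks it was 253, 304 and 300 FPKM in controls and 131, 152 and 150 after VPA, with an interaction of -1.37 ± 0.22 (SE, limma adjusted p = 0.0552). Epha3, an ephrin receptor of axon guidance, was alike at E15 (40 to 46.3 FPKM in controls, 39.7 to 51.2 after VPA). In adults it was 4.95, 4.25 and 6.06 FPKM in controls and 0.831, 1.3 and 1.47 after VPA (interaction -1.56, limma adjusted p = 0.0552). Ankrd37, a hypoxia-inducible ankyrin-repeat gene, was 0.205, 0 and 0.263 FPKM in adult controls and 5.01, 8.31 and 4.38 after VPA, with an interaction of 2.34 (limma adjusted p = 0.0871). Gjc3, a glial gap junction protein, was 65.0, 64.9 and 53.7 FPKM in adult controls and 136, 137 and 151 after VPA, and at or below 0.0933 FPKM in every E15 library (interaction 1.17, limma adjusted p = 0.0923). Rhod and Riiad1 were listed at 0 in all 3 adult VPA libraries and were 3.89 to 6.84 and 5.38 to 20.2 FPKM in the adult controls. Their interactions were -3.17 and -3.58, with limma adjusted p of 0.0552 and 0.0565.

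A shared effect was asked for by testing the mean of the E15 and 12-week differences, and 8 genes were called (0.0568%), 2 higher (0.0142%) and 6 lower (0.0426%). The small RNA genes Mir7078, Mir3057, Snord57 and Snord65, Sap25 and 0610040B10Rik were among them through the values given above. The E15 groups of 0610040B10Rik overlapped, so its call came from the adult difference and does not show a shared effect. These 4 small RNA genes had no adult value above 0, so for them the mean restates the E15 difference. Only 3 genes were called when all small RNA genes, Rpph1 among them, were left out. Calcoco1 was the protein-coding gene lower at both ages. It encodes a coiled-coil protein, described both as a transcriptional coactivator and as a receptor for selective autophagy. It was 69.0, 73.6 and 73.6 FPKM in E15 controls and 57.1, 55.0 and 57.0 after VPA. The adult libraries were at 110, 106 and 110 FPKM in controls and 67.7, 57.5 and 71.2 after VPA. The groups did not overlap at either age, and VPA reached 0.782 times the control mean at E15 and 0.6 times at 12 weeks. The mean difference was -0.54 (limma adjusted p = 0.0113). Its interaction of -0.39 was not called (limma adjusted p = 0.408). Calcoco1 was called for the mean effect in 12 of 13 other settings and in 8 of 12 fits that left out 1 library. It was not called with the replicate block within each age (limma adjusted p = 0.21). Rpph1, the RNA component of ribonuclease P and also a small RNA gene, was lower at both ages. It was 3.76 to 4.48 FPKM in E15 controls and 1.27 to 2.69 after VPA. Adult controls were at 7.40 to 27.6 FPKM and adult VPA libraries at 0, 0.305 and 0. This 319-base gene overlaps exonic sequence of Ccnb1ip1 on the same strand. The limits given above for short genes and listed zeros apply to it too.

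To sort E15 differences by their fate, genes were marked at each age by 1 rule. A gene was marked when its 3 VPA and 3 control values did not overlap and the log2 difference was at least 0.5. Groups of 3 can separate by chance, so a mark is a description and not a test. Marks were read over the 11984 genes with a mean of at least 1 FPKM at each age. At E15, 159 genes were marked (1.33%), 110 higher (0.918%) and 49 lower (0.409%) after VPA. At 12 weeks, 1127 were marked (9.4%). The replicate spread was also larger there, and its part in this count was not tested. Of the 159 genes, 21 were marked in the same direction at 12 weeks (13.2%), 13 in the opposite direction (8.18%) and 125 were not marked (78.6%). Over all tested genes, 5.4% were marked higher and 4.94% lower at 12 weeks. Without VPA E15 replicate 3, 14 of the 21 and 6 of the 13 kept their category. The 2 categories then held 22 and 12 genes, so their membership changed more than their size. The adult difference had the same sign as the E15 difference in 92 of 159 (57.9%), close to the 54.5% over all genes at both ages. Across the 11984 genes the E15 and 12-week differences had a Pearson correlation of 0.0465 and a Spearman correlation of 0.115. Genes are not independent replicates, so these are descriptions. Among the 159 genes marked at E15, Sap25 alone (0.629%) passed the interaction test, and it was higher after VPA at both ages. Neither loss nor reversal was therefore established for any of the 159 genes.

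**Figure D2:**
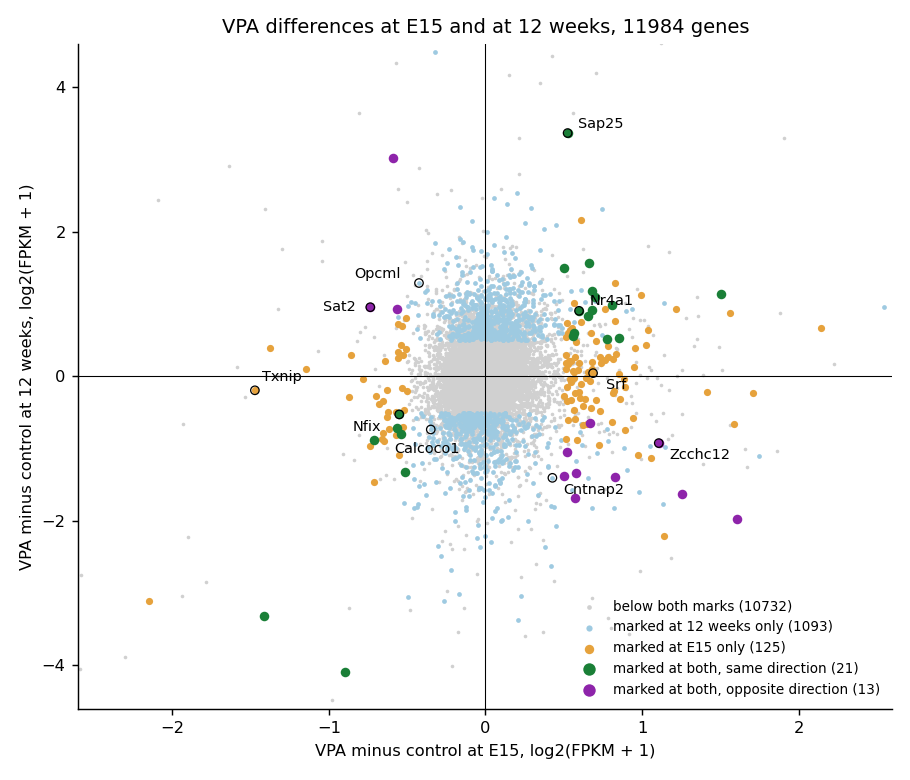
Each point is 1 of 11984 genes, placed by its VPA-minus-control difference at E15 (x axis) and at 12 weeks (y axis), both in log2(FPKM + 1), and coloured by whether it was marked at either age. The genes marked at E15 spread above and below 0 at 12 weeks, with 21 marked in the same direction and 13 in the opposite one. A further 28 genes lie outside the axes.

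Genes marked in the same direction at both ages included the immediate early gene Nr4a1 and several signalling genes. Nr4a1, an orphan nuclear receptor induced by activity and growth factors, was 4.55, 3.13 and 4.44 FPKM in E15 controls and 6.70, 6.34 and 6.63 after VPA. In adults it was 77.1, 74.2 and 46.2 FPKM in controls and 100, 127 and 140 after VPA. The ratio of means was 1.62 at E15 and 1.86 at 12 weeks, on baselines that differed widely. Sulf2, an extracellular sulfatase that edits heparan sulfate, was 10.2, 6.46 and 6.24 FPKM in E15 controls and 13.7, 12.6 and 11.6 after VPA. Its adult values were 83.9, 132 and 86.6 FPKM in controls and 148, 183 and 247 after VPA. Grik3, a kainate receptor subunit, was 16.5 to 20.2 FPKM in E15 controls and 27.6 to 32.5 after VPA, then 4.33 to 7.81 and 10.7 to 13.3 in adults. Spry2, a feedback inhibitor of receptor tyrosine kinases, was 7.25 to 8.29 FPKM in E15 controls and 12.8 to 16.7 after VPA, then 44.3 to 52.0 and 57.5 to 90.9 in adults. Plk3, a stress-responsive polo-like kinase, had log2 differences of 0.70 and 1.10, Cacna2d2, a calcium channel subunit, 0.85 and 0.53, and Erdr1, 0.81 and 0.99. Sulf1 also met the rule, but its 19.1 FPKM in VPA E15 replicate 3 stood against 1.14 and 1.43 in the other VPA libraries, and its E15 difference of 1.5 was 0.46 without that library.

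Genes lower at both ages were fewer. Nfix, a nuclear factor I protein that acts in neural stem cell differentiation and quiescence, was 225, 291 and 260 FPKM in E15 controls and 189, 194 and 147 after VPA. Adult values were 306, 324 and 333 FPKM in controls and 259, 237 and 179 after VPA, and the log2 difference was -0.55 and -0.53. Without VPA E15 replicate 3 the E15 difference was -0.43. Paqr8, a membrane progestin receptor, was 10.2 to 12.3 FPKM in E15 controls and 6.20 to 8.04 after VPA, then 37.6 to 54.0 and 19.9 to 31.7 in adults. Tspan18, a tetraspanin, had differences of -0.51 and -1.33, and the first was -0.29 without VPA E15 replicate 3. None of these genes passed the adjusted test for the mean effect: Nfix had a limma adjusted p of 0.124, Nr4a1 of 0.1 and Grik3 of 0.0892.

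Genes marked in opposite directions included 2 transcription regulators. Zcchc12, a zinc-finger coactivator expressed in the developing brain, was 12.1, 8.24 and 7.48 FPKM in E15 controls and 19.7, 18.2 and 24.9 after VPA. In adults it was 10.6, 13.3 and 9.59 FPKM in controls and 5.95, 8.83 and 2.79 after VPA. It was thus 2.26 times the control mean at E15 and 0.524 times at 12 weeks, with an interaction of -2.03 ± 0.44 (SE, limma adjusted p = 0.174). Pou3f1, a POU-domain factor of neural progenitors and myelinating glia, was lower at E15 and higher in adults. It was 34.1, 47.9 and 33.8 FPKM in E15 controls and 27.7, 26.0 and 22.9 after VPA, then 7.03, 11.7 and 14.6 in adult controls and 17.8, 23 and 23.8 after VPA. Its interaction was 1.5 ± 0.33 (SE, limma adjusted p = 0.176). Sat2, of the spermidine acetyltransferase family, had the same order: 6.23 to 10.04 FPKM in E15 controls and 3.88 to 5.72 after VPA, then 2.07 to 6.68 in adult controls and 7.22 to 10.5 after VPA. Pon2, a paraoxonase, was marked higher at E15 because of VPA replicate 3 (11.7 FPKM), and its E15 difference of 0.83 was 0.20 without it. Lgals3bp (10.1 FPKM), Nts (8.95 FPKM) and Pnp2 (5.29 FPKM) were likewise highest in that library, where choroid plexus markers were also high, and their part in these results was not tested. Without this library their E15 differences were 0.56, 0.96 and 0.08.

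**Figure D3:**
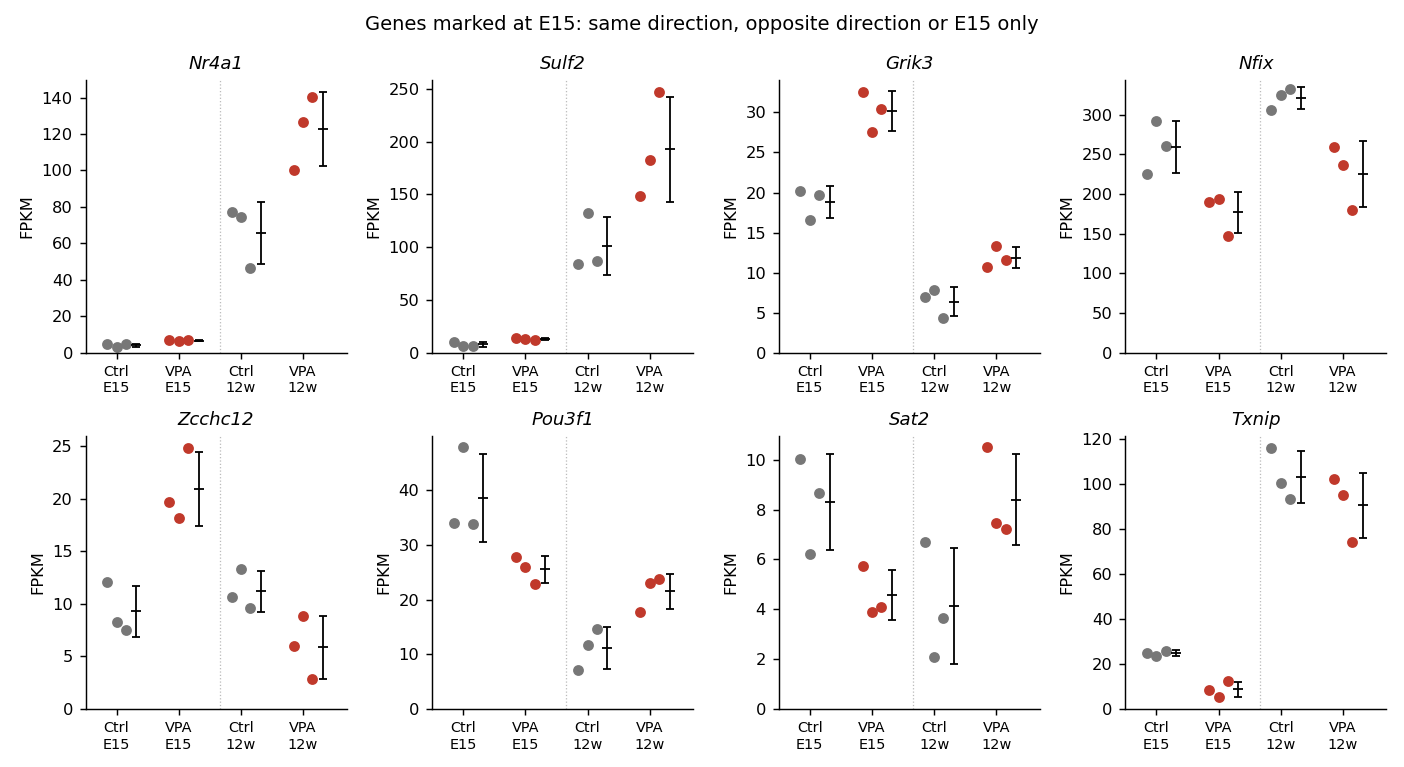
FPKM of 8 genes marked at E15 in each of the 12 libraries (grey, control; red, VPA; black, mean ± SD, n = 3), each with its own y axis. The top row shows Nr4a1, Sulf2 and Grik3 higher and Nfix lower after VPA at both ages, and the bottom row shows Zcchc12, Pou3f1 and Sat2 marked in opposite directions and Txnip marked lower at E15 and overlapping in adults.

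Genes marked at E15 and not in adults included Txnip, an inhibitor of thioredoxin that limits glucose uptake. It was 24.9, 23.2 and 25.8 FPKM in E15 controls and 8.33, 5.42 and 12.1 after VPA, 0.35 times the control mean. At 12 weeks it was 116, 100 and 93.0 FPKM in controls and 102, 95.0 and 74.3 after VPA, and the groups overlapped. The interaction was 1.28 ± 0.31 (SE, limma adjusted p = 0.23). An antisense transcript overlaps its exons, so the values may hold reads of both. Slc30a1, which exports zinc from the cell, was 2.88 to 3.16 FPKM in E15 controls and 5.75, 7.78 and 6.24 after VPA, against 10.3 to 16.6 and 9.91 to 11.9 in adults. Mid1, a microtubule-bound ubiquitin ligase, was 9.23 to 13.4 FPKM in E15 controls and 20.3 to 24.9 after VPA, and its adult values overlapped (17.9 to 28.4 against 13.4 to 19.7). Zic2, a patterning factor that acts with the Hedgehog pathway, was 6.34 to 12.0 FPKM in E15 controls and 13.3 to 17.1 after VPA, and 34.8 to 47.3 against 26.6 to 42.0 in adults. Gabra2, a GABA-A receptor subunit, was lower at E15, at 15.4, 8.69 and 9.12 FPKM against 19.2 to 21.7 in controls. C1qtnf5, Gsta4, Gas6 and Vat1l, also marked higher at E15 and not in adults, were highest in VPA E15 replicate 3, the library with choroid plexus transcripts. Without it their E15 differences of 1.71, 1.59, 1.41 and 1.04 were 0.14, 0.7, 0.43 and 0.27.

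The immediate early genes, which switch on within minutes of a stimulus without new protein synthesis, stood higher after VPA at both ages. Of 24 tested, 21 were higher at E15 (median difference 0.40) and 20 at 12 weeks (median 0.28), against 49.4% and 48.9% of all tested genes. None passed the interaction threshold (lowest limma adjusted p = 0.354), and 5 were marked higher at E15 and 7 at 12 weeks, against 1.19% and 5.4% of all tested genes. The member genes differed in when they were marked. Srf, the serum response factor that drives many of these genes, was 20.2, 18.2 and 19.3 FPKM in E15 controls and 30.4, 35.7 and 28.9 after VPA, then 36.0, 35.4 and 30.2 against 39.1, 38.1 and 28.5 in adults. Egr3 was 0.688 to 1.01 FPKM in E15 controls and 2.37 to 2.77 after VPA, and overlapped in adults (8.45 to 14.3 against 10.7 to 15.2). Junb was 2.98 to 4.32 FPKM in E15 controls and 6.54 to 7.51 after VPA, and 103 to 144 against 129 to 151 in adults. Fos was 7.66 to 14.4 FPKM in E15 controls and 12.4 to 22.5 after VPA, which overlapped, and 466 to 655 against 714 to 882 at 12 weeks, which did not. Jun was likewise separate in adults alone, at 243 to 303 FPKM against 415 to 466. Jund, at 75.8 to 98.97 FPKM in E15 controls and 67.4 to 89.03 after VPA, then 142 to 177 against 187 to 249 in adults, had the largest upward interaction of the list by p (0.65, limma adjusted p = 0.372). The adult level of Fos was far above its E15 level in every library of both groups.

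The 250 bases before the 24 annotated starts of 20 of the 25 list members were searched on both strands. The motifs were the CArG box, which serum response factor binds, and TGACGTCA, the cAMP response element. Egr1, Egr3, Arc, Ier2 and Fosl1 had no start in the source used and were not searched, nor were bases further upstream of any gene. Srf and Egr2 held a CArG box, against 1.47% of all 32851 promoters of that length, and Dusp1 and Btg2 held TGACGTCA, against 1.55%. These shares are per start, while the matches are counted per gene and Egr2 has several starts. The stretches around these matches are given with the motif in capitals (RefSeq, GRCm38.p6): Srf at chr17:46556215-46556244 on the minus strand, Egr2 at chr10:67537787-67537816 on the plus strand, Dusp1 at chr17:26508597-26508626 and Btg2 at chr1:134079303-134079332, both on the minus strand.
Srf: CCATATAAGGagcggcctcgCCATAAAAGG
Egr2: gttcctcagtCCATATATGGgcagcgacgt
Dusp1: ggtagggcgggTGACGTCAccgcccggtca
Btg2: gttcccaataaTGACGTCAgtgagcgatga
A match is a description of the sequence and not of binding. The genes with matches did not share 1 pattern. Dusp1, a phosphatase that turns off MAP kinases, was 31.8 to 35.9 FPKM in E15 controls and 40.9 to 46.0 after VPA, and 74.5 to 135 against 153 to 161 in adults. Btg2, an antiproliferative gene of neurogenic progenitors, was 18.6 to 25.1 against 24.9 to 37.1 FPKM at E15 and 83.3 to 131 against 101 to 110 at 12 weeks. Egr2 was under 0.6 FPKM in every E15 library.

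Markers of oligodendrocyte precursors, the cells that renew myelinating glia, were higher after VPA in adults. All 11 were higher in the adult VPA group, with a median difference of 0.94, and 7 were marked higher, against 5.4% of all tested genes. At E15, 6 of 11 were higher with a median of 0.13, and none was marked. The interaction was upward at an unadjusted p under 0.05 in 10 of 11, against 4.87% of all tested genes, but none was called after adjustment over all genes (lowest limma adjusted p = 0.279). The adult count stayed at 11 of 11 in each of the 12 sets that left out 1 library. Nkx2-2, a homeodomain factor of the lineage, was 13.1, 17.6 and 12.3 FPKM in adult controls and 26.0, 39.1 and 36.7 after VPA. Pdgfra, the receptor for the mitogen of these cells, was 150, 189 and 124 FPKM in controls and 251, 318 and 424 after VPA. Sox10, required for their differentiation, was 96.2, 123 and 80.9 FPKM in controls and 169, 183 and 229 after VPA. Tnr, a perineuronal tenascin, was 43.4, 57.3 and 40.9 FPKM in controls and 81.7, 84.5 and 88.5 after VPA. These genes were scarcely present at E15, where the 11 markers summed to 11.9 to 18.7 FPKM, so the embryonic difference rests on values near 0 for Sox10, Nkx2-2, Matn4 and Gpr17. Markers of myelinating oligodendrocytes did not share this direction: 9 of 12 were lower in adult VPA libraries (median -0.62, and -0.35 without Control 12w replicate 3 or without VPA 12w replicate 1, and -0.96 without Control 12w replicate 2).

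Newborn neuron markers were lower after VPA in adults. Of 20 tested, 19 were lower at 12 weeks (median -0.37) and 6 were marked lower, against 4.94% of all tested genes. At E15, 16 were lower, with a median of -0.07 and none marked. Neurod2, a proneural factor of maturing neurons, was 296, 310 and 309 FPKM in E15 controls and 292, 304 and 275 after VPA. In adults it was 39.5, 38.0 and 39.1 FPKM in controls and 24.4, 17.4 and 21.7 after VPA, with an interaction of -0.79 ± 0.16 (SE, limma adjusted p = 0.156). Neurod1 was 245, 241 and 290 FPKM in adult controls and 182, 173 and 124 after VPA. Calb2, which marks young granule neurons, was 285, 293 and 302 FPKM in adult controls and 211, 212 and 179 after VPA. At E15 it was 9.89 to 11.1 FPKM in controls and 10.5, 10.9 and 16.8 after VPA. Dcx, the microtubule protein of migrating neuroblasts, was 98.9 to 119 FPKM in adult controls and 65.9 to 97.3 after VPA. Ncam1 was the exception: 76.1 to 84.5 FPKM in E15 controls and 61.4 to 65.4 after VPA, then 88.2 to 108 in adult controls and 105 to 125 after VPA. The summed level of the list was 3341 to 3760 FPKM in adult controls and 2225 to 2735 after VPA.

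**Figure D4:**
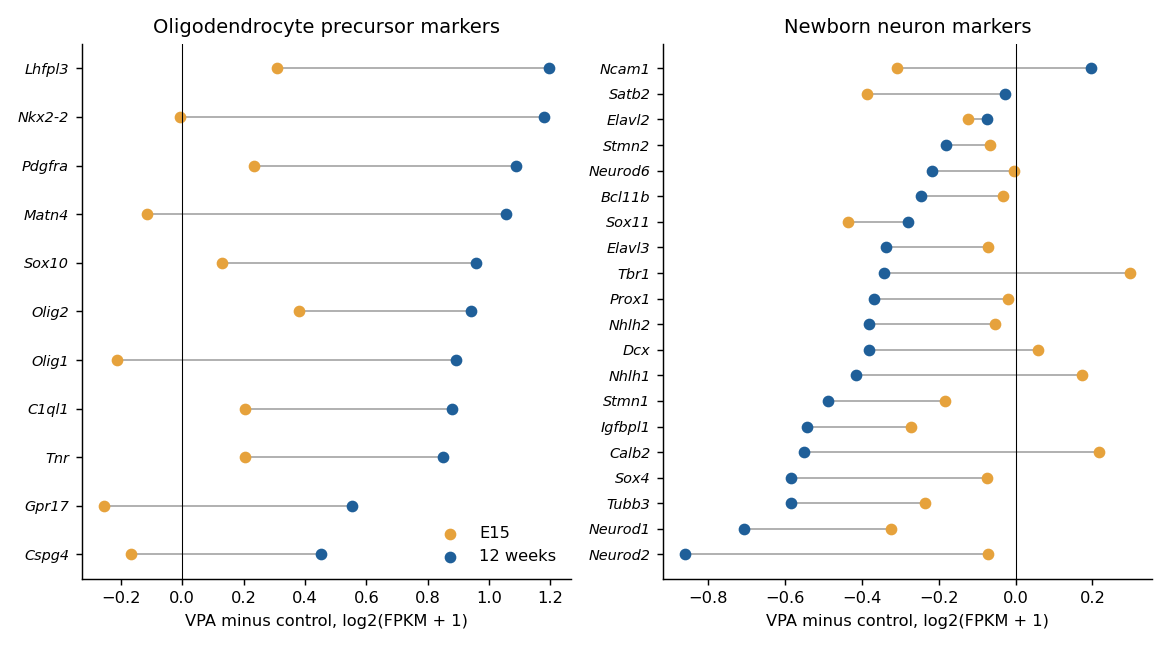
VPA-minus-control difference in log2(FPKM + 1) of each oligodendrocyte precursor marker (left, 11 genes) and newborn neuron marker (right, 20 genes) at E15 (orange) and 12 weeks (blue), ordered by the 12-week difference. All 11 precursor markers lie above 0 at 12 weeks, and 19 of 20 neuron markers lie below it.

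Other glial and vascular markers were also lower in adult VPA libraries. Of 14 astrocyte markers, 13 were lower (median -0.60), against 50.3% of all tested genes, and 5 were marked lower, against 4.94%, with S100b the exception at 47.4 to 79.1 FPKM in controls and 101 to 125 after VPA. S100b is also expressed in oligodendrocyte lineage cells. All 9 endothelial markers were lower (median -1.08, and -0.52 without VPA 12w replicate 3) and 11 of 12 pericyte and mural markers were (median -0.65). At E15 the same lists had medians of -0.05, -0.04 and -0.09. The endothelial markers summed to only 1.19 to 6.98 FPKM there and the pericyte and mural markers to 17.6 to 25.6 FPKM. The E15 medians of the vascular lists therefore rest on low values and do not show that VPA had no effect. The vascular lists mark cells outside the neural lineage, and their part in the other adult differences was not tested. Nes, the gene whose regulatory sequence drives the reporter, was 14.2 to 17.8 FPKM in E15 controls and 15.6 to 20.1 after VPA, and 10.6 to 18.7 against 7.86 to 12.4 in adults (interaction -0.60, limma adjusted p = 0.576). Hopx, a marker of quiescent dentate stem cells, was 78.8 to 239 FPKM in adult controls and 43.1 to 95.4 after VPA, which overlapped. Cxcr4, the receptor that positions dentate progenitors, was 21 to 24.8 against 11.8 to 28.4 FPKM at E15 and 36.9 to 58.2 against 15 to 30.5 at 12 weeks (interaction -0.73, limma adjusted p = 0.646). Its ligand Cxcl12 was 14.7 to 15.4 FPKM in E15 controls and 17.7 to 19.2 after VPA, and 25.8 to 61.1 against 21.1 to 35.2 in adults.

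Cell cycle genes were mostly lower in adults. Of 23 genes of G2 and mitosis, 14 were higher at E15 (median 0.04) and 20 were lower at 12 weeks (median -0.61). The E15 direction rested on single libraries: all 23 were higher without Control E15 replicate 1 (median 0.28), and 2 of 23 without Control E15 replicate 3 (median -0.18). Without VPA 12w replicate 3 the adult median was -0.2, with 8 of 23 higher. Ccnb1, the mitotic cyclin, was 4.98 to 10.2 FPKM in E15 controls and 7.01 to 7.97 after VPA, and 3.84, 7.95 and 4.37 against 0.860, 1.48 and 0.784 in adults. Its interaction was -1.65 ± 0.42 (SE, limma adjusted p = 0.246). Mki67, which marks cycling cells, was 9.62 to 12.4 FPKM in adult controls and 4.79 to 8.17 after VPA. Of 25 S-phase genes, 21 were lower at 12 weeks (median -0.27, but -0.09 without Control 12w replicate 2 and -0.15 without VPA 12w replicate 3), and Cdt1, which licenses replication origins, was 15.5 to 23.5 FPKM in controls and 9.38 to 14.3 after VPA. Cytosolic ribosomal protein genes were lower at both ages, 69 of 76 at E15 (median -0.13) and 74 of 76 at 12 weeks (median -0.36), against 50.3% of all tested genes at each age. Their E15 median was -0.02 without Control E15 replicate 2, where 25 of 76 were higher, and -0.24 without Control E15 replicate 1.

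GABAergic and imprinted genes were mostly higher at E15. All 12 GABAergic neuron genes tested were higher at E15 (median difference 0.69), against 49.4% of all tested genes, and 4 were marked higher, against 1.19%. At 12 weeks 7 were higher and 3 lower (median 0.35, and 0.02 without Control 12w replicate 2). Dlx5, a homeodomain factor of interneuron progenitors, was 35.8, 18.6 and 11.8 FPKM in E15 controls and 41.8, 42.3 and 38.3 after VPA. Gad1, which makes GABA, was 14.9 to 32.3 FPKM in E15 controls and 26.8 to 35.8 after VPA, and 8.13 to 11 against 13.04 to 37.3 in adults. Control E15 replicate 1 held the highest Dlx1, Dlx2, Dlx5, Gad1 and Gad2 of its group. Of 19 imprinted genes, 17 were higher at E15 (median 0.24) and 8 at 12 weeks (median -0.09). Without VPA E15 replicate 3, 14 of them were higher at E15 (median 0.18). Peg3, a zinc-finger imprinted gene, was 11.5 to 16.9 FPKM in E15 controls and 20.4 to 22.2 after VPA, and 21.1 to 25.6 against 15.3 to 22.1 in adults (interaction -0.82, limma adjusted p = 0.344). Magel2 was 1.15 to 3.11 FPKM in E15 controls and 4.81 to 6.73 after VPA, and was listed at 0 in all adult libraries. Hedgehog pathway genes were higher at E15 in 8 of 11 (median 0.25) and in 4 of 11 at 12 weeks (median -0.24). These medians were 0.14 without VPA E15 replicate 2 and -0.07 without VPA 12w replicate 1. Ptch1, the Hedgehog receptor, was 3.02 to 4.98 FPKM in E15 controls and 5.67 to 6.41 after VPA, with adult groups that overlapped. Gli1, an effector of the pathway, was 0.820 to 1.21 FPKM in E15 controls and 1.67 to 1.77 after VPA.

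**Figure D5:**
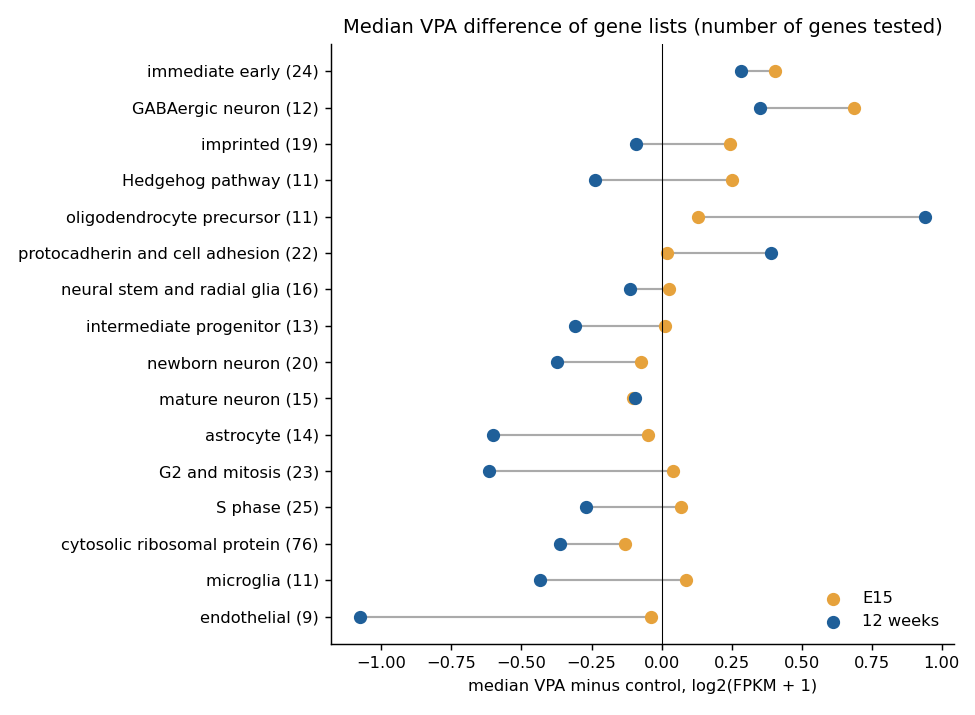
Median VPA-minus-control difference, in log2(FPKM + 1), of 16 gene lists at E15 (orange) and 12 weeks (blue), with the number of genes tested in parentheses. Immediate early genes lie above 0 at both ages, and oligodendrocyte precursor markers are at 0.13 and 0.94 while endothelial markers are at -0.04 and -1.08. At E15 these precursor and endothelial markers summed to only 11.9 to 18.7 and 1.19 to 6.98 FPKM.

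Of 22 protocadherin and other adhesion genes, 18 were higher at 12 weeks (median 0.39) against 12 at E15 (median 0.02). The member called, Cntnap2, went the other way and was lower at 12 weeks. Over all tested genes, 48.9% were higher at 12 weeks and 49.4% at E15. Ion channel genes were higher in 16 of 25 at each age (medians 0.03 and 0.30), but in 11 at E15 without Control E15 replicate 2. Among 24 receptor genes for GABA and glutamate, 14 stood above the controls at E15 and 13 at 12 weeks (medians 0.03 and 0.16). Pcdh15, a protocadherin also present in oligodendrocyte precursors, was 20 to 26.4 FPKM in adult controls and 52.3 to 55.9 after VPA, and under 0.5 FPKM in every E15 library. Cntn2, an axonal contactin, was 278 to 299 against 263 to 307 FPKM at E15 and 14.8 to 15.6 against 8.15 to 10.1 in adults (interaction -0.71, limma adjusted p = 0.157). Kcnd2, an A-type potassium channel, was 6.92 to 8.09 FPKM in adult controls and 13.6 to 21.5 after VPA, with overlapping values at E15 (interaction 1.18, limma adjusted p = 0.234). Gria4 and Grik1, glutamate receptor subunits, were 15.6 to 26.3 against 31.4 to 32.9 FPKM and 2.34 to 3.43 against 5.77 to 9.92 FPKM in adults. Of the 13 histone deacetylase genes, targets of VPA among them, 5 were higher at E15 (median -0.05) and 7 at 12 weeks (median 0), and none passed the interaction threshold (lowest limma adjusted p = 0.328).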

How the data were processed

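FPKM values per gene symbol were used as the authors deposited them. TopHat, Bowtie2, Cufflinks and Cuffdiff and the mm10 build are named in the submitters' processing notes, without versions or roles. Read counts, filters and strand handling are not given in the sources used here. For this report, log2(FPKM + 1) of genes with at least 1 FPKM in at least 3 of the 12 libraries (14082 of 24322 symbols) was fitted in limma 3.58.1 (R 4.3.3) with 4 group means, letting the prior variance follow the mean level. Benjamini-Hochberg adjustment covered all tested genes, with a threshold of 0.05, and the fit was tested on simulated data. The 12-week contrast was also fitted on its 6 libraries alone, because the shared spread is too small for it: it called 432 genes in the fit of 12 libraries and 1 in the fit of 6. Adult values are therefore described without that call. The groups, 42 gene lists and rule for named genes were chosen with earlier results of these data known. The rule took genes past the interaction or mean-effect threshold, up to 8 genes per marked category and direction, the 3 list members with the smallest interaction p, Nes and Cxcr4. Genes outside it (such as Fos and Jun) were chosen after their values were seen. Positions came from GENCODE M21 (mm10), where 23185 symbols matched a single gene, and sequences from RefSeq. Not every gene that met the rule is reported here.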

Additional observations from a re-analysis of the deposited data

Results flagged for a closer look

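The 12 genes whose VPA effect differed between E15 and 12 weeks by the interaction test are the results that merit another look. Cntnap2 (-1.83) and Opcml (1.72) had values well above 0 in all 12 libraries. Sap25 (2.84), 0610040B10Rik (4.81), Eldr (2.73), A330048O09Rik (-4.54) and Gm15545 (-2.74) had a 12-week group at or near 0 FPKM. Mir7078 (8.19), Snord57 (7.71), Snord65 (7.64), Mir3057 (4.88) and Scarna6 (2.59) were listed at 0 in all VPA E15 libraries and in all 6 adult libraries. Differences are in log2(FPKM + 1), 12 weeks minus E15.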

How the results depend on the processing

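The main counts were 9 genes with an upward and 3 with a downward interaction, 5 at E15, 432 at 12 weeks and 8 for the mean effect. With a pseudocount of 0.1, 6 genes were downward, 222 were called at 12 weeks and 14 for the mean, and 217 genes were marked at E15 only. With no filter, 14 were upward, 21 downward and 33 called for the mean. With a mean of 1 FPKM required at each age, 1 was upward, 1 downward, 0 were called at E15 and 4 for the mean. Array weights per library gave 4 upward, 1 downward, 876 at E15 and 0 at 12 weeks, and weights by age gave 3, 1, 26 and 0. Without the intensity trend 15 were upward, 16 downward and 42 called for the mean. A fit of all 21 libraries gave 3 at E15 and 30 for the mean. Without small RNA genes 1 was upward, 0 were called at E15 and 3 for the mean. The fit of the 6 libraries of an age gave 1 gene at 12 weeks. A minimum difference of 1 gave 2 genes in the same direction, 3 opposite, 17 at E15 only and 331 at 12 weeks only. No minimum gave 231, 113 and 1718 for the first 3. Leaving out 1 library at a time gave 0 to 18 upward, 0 to 17 downward, 0 to 10 at E15, 73 to 984 at 12 weeks and 0 to 111 for the mean. The same sets gave 22 to 42 genes in the same direction, 12 to 25 opposite, 109 to 271 at E15 only and 1062 to 2135 at 12 weeks only. Without any 1 of the 3 E15 control libraries no interaction was called, where 5 of the 12 genes were not tested because they passed the filter only through those controls. Without Control 12w replicate 1 the mean effect called 111, and 2135 genes were marked at 12 weeks only. The cause of the other changes was not tested.

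Same-numbered libraries deviated together at E15 (correlations 0.11 to 0.192) and not at 12 weeks (-0.0449 to -0.00669). Same-numbered E15 and 12-week controls, which come from different ages, correlated at 0.18, 0.0934 and 0.08. These correlations therefore do not show whether the E15 libraries were paired. With the replicate block 6 genes were upward, 3 downward and 179 called at 12 weeks. With a replicate block within each age, chosen after seeing the data, 4 were upward, 0 downward, 4 called at 12 weeks and 4 for the mean. Of 270 interaction values of the 12 called genes under 25 settings, 174 kept their call, 96 lost it and none turned sign. No scaling moved the median difference of all genes by over 0.1. Depth is unknown, so genes listed at 0 have no detection limit.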
